A study of Mus musculus with 8 samples.

Results

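Fgf5, Otx2, Pou3f1, Sox4, Sall2, Zic2 and Zic5 are 7 genes used as markers of formative and primed pluripotency, and they were followed here in mouse embryonic stem cells (ESCs) with and without Dax1. The genes were taken by name from the 52550 genes in each count file, and all 7 were found. ESCs in 2i/LIF resemble the naive epiblast before implantation. As that epiblast leaves the naive state it passes through a formative stage, in which the genome is opened for later lineage choice, and then becomes primed, the state of the epiblast just before gastrulation. Fgf5 encodes a secreted fibroblast growth factor and is the classical marker of the epiblast after implantation. The other members encode transcription factors. Otx2 is a homeodomain protein that drives exit from the naive state, Pou3f1 (Oct6) a POU factor, Sox4 an HMG box factor of the SoxC group, Sall2 a zinc finger protein of the spalt family, and Zic2 and Zic5 are zinc finger proteins that also act in neural development.

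Dax1 (Nr0b1) is an orphan nuclear receptor without a DNA binding domain of the usual kind and belongs to the transcription factor network of ESCs. Control ESCs and Dax1KO ESCs were each grown in 2i/LIF and in LIF/serum, and mRNA was sequenced from 2 libraries in each of these 4 groups, 8 libraries in all, every one labelled passage 3. The 2i/LIF medium was N2B27 with 1 µM PD0325901 (a MEK inhibitor), 3 µM CHIR99021 (a GSK3 inhibitor) and 10 ng/ml LIF, while the LIF/serum medium was DMEM with 15% FBS and 10 ng/ml LIF and held neither inhibitor. The knockout was made with a lentiviral CRISPR/Cas9 vector, zeocin selection and picking of colonies, and the Dax1KO line was established in 2i/LIF and moved to LIF/serum afterwards. The study reports that Dax1KO cells moved to LIF/serum looked differentiated, with massive cell death, and could not be kept in passage there. The part of this in the LIF/serum values was not tested. The labels call the other line "control" and give no strain, the study also calls it wild-type, and the sources used here do not say whether it carried the vector. Genotype is therefore a comparison of cell lines, and the medium of the Dax1KO cells is also a change of medium after derivation. Nothing states that the 2 libraries of a group came from separate cultures, so P values measure the spread between these libraries, which may be technical. RNA of whole cultures was measured, so fewer cells of a kind and less RNA in each cell cannot be told apart.

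The libraries held 35911384 to 37286251 counts each, and the 10 highest genes took 4.27% to 5.18% of a library. In 2i/LIF Dax1 itself was counted 456 and 300 times in control cells and not once in either Dax1KO library, at least 129-fold lower when a count of 0 is read as a floor of 3 counts in a library. In LIF/serum Dax1 had 5095 and 4689 counts in control and 14 and 6 in Dax1KO cells, or -9.06 on the log2 scale (SE 0.38, adjusted P = 0.000395 by the quasi-likelihood test of edgeR, with the Benjamini-Hochberg method over 20749 genes). The genotype labels were thus borne out in all 8 libraries. The ESC markers Pou5f1 (counts of 18304 to 42310) and Sox2 (13071 to 21066) were high in every library, and the summed normalized counts of 6 ESC markers ran from 114450 to 145127. In 2i/LIF these sums were 141127 and 144123 in control and 114450 and 115420 in Dax1KO cells, without overlap. None of the 6 was called there by edgeR, 4 had an unadjusted P under 0.05, and DESeq2 called Pou5f1 (-0.43 by edgeR), Sox2 (-0.50) and Zfp42 (-0.56). In LIF/serum the sums were 137455 and 145127 in control and 129378 and 120690 in Dax1KO cells, again without overlap. There edgeR called 0 of the 6, and 3 had an unadjusted P under 0.05 (Zfp42 -0.40, Sox2 -0.34 and Nanog 0.28). DESeq2 called Sox2 alone. The part of these levels in the values of Zic2, Zic5, Sall2 and Otx2 in the same libraries was not tested.

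All 7 markers are protein coding genes of the mouse build GRCm38 in the GENCODE M21 annotation. Zic2 (ENSMUSG00000061524.8, chr14:122475435-122479852, plus strand) and Zic5 (ENSMUSG00000041703.7, chr14:122456795-122465677, minus strand) are neighbours that point away from each other, with 9758 bases between their starts. Sall2 (ENSMUSG00000049532.10, chr14:52311172-52328762) and Otx2 (ENSMUSG00000021848.15, chr14:48657677-48673819) lie on the minus strand of the same chromosome. Sox4 (ENSMUSG00000076431.4, chr13:28948919-28953713, minus strand) and Pou3f1 (ENSMUSG00000090125.3, chr4:124656807-124660655, plus strand) each have 1 exon. Fgf5 (ENSMUSG00000029337.2) lies at chr5:98254184-98277030 on the plus strand.

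RefSeq promoter windows (GRCm38.p6, 250 bases before to 50 after a start) were matched for 5 of the 7 members, Fgf5, Otx2, Sox4, Sall2 and Zic5. The stretches below are shown for the genes whose levels differed most with genotype or medium, 5′ to 3′ on the gene's strand, and stop 51 bases before the RefSeq start, or 93 bases before it at the outer Sall2 start, where an annotated exon begins. Capitals mark a GC box, a CCAAT box or a TATA box. The GC box was searched as GGGCGG on both strands. The CCAAT box was searched as CCAAT and the TATA box as the hexamer TATAAA, both likewise on either strand, so that the capitals may show the complement.
Zic5, chr14:122465709-122465908, minus strand: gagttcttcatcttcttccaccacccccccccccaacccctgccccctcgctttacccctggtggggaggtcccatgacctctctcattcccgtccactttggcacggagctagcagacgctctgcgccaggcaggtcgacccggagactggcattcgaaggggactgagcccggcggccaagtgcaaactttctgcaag
Sall2, inner start, chr14:52316374-52316573, minus strand: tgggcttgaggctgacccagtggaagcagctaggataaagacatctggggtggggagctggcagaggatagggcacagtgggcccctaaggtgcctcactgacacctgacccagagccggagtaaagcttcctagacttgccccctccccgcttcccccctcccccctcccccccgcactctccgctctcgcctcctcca
Sall2, outer start, chr14:52328763-52328920, minus strand: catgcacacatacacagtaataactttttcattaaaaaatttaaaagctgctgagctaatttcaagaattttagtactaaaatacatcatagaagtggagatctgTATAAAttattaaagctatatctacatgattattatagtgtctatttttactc
Sox4, chr13:28953750-28953949, minus strand: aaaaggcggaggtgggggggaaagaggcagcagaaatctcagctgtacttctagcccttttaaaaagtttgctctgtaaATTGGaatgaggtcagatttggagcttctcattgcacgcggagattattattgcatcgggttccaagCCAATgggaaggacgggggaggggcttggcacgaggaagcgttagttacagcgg
Fgf5, chr5:98253934-98254133, plus strand: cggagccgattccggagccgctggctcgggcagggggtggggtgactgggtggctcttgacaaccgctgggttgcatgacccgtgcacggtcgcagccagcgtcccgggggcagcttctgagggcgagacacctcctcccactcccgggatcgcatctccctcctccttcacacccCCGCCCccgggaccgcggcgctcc
The windows differ in base composition. The Fgf5 window holds 29 CpG dinucleotides in 300 bases, Zic5 holds 15, Sox4 holds 12, and the inner and outer Sall2 windows hold 10 and 1, against a median of 7 over all 32851 windows. The Sox4 window has 4 CCAAT boxes, at 171, 104, 47 and 8 bases before the start, and 1.06% of all windows have at least 4. The outer Sall2 window has TATAAA 145 bases before its start and CCAAT 86 bases before it, and Fgf5 has TATAAA 34 bases after its start and CCGCCC 74 bases before it. Of all windows 13.6% hold a TATA box of these letters, 37.4% a CCAAT box and 35.7% a GC box. The nuclear receptor half-site AAGGTCA (4.72% of all windows), the POU octamer ATGCAAAT (1.74%), the SOX motif CATTGTT (3.78%), the TCF/LEF motif CTTTGAT (3.73%) and the ETS motif CCGGAAG (8.86%) were not found, on either strand, in the windows of the 5 matched members. The OTX motif GGATTA (7.06%) was found once, in 1 of the 4 windows of Otx2, whose start lies 8710 bases from the GENCODE start of the gene. These are matches of letters and not tested sites.

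The effect of Dax1KO on the markers depended on the gene and on the medium. In 2i/LIF 1 of the 7 markers, Sall2, passed the test (fold change of 1.2 or more at an adjusted P no higher than 0.05), and it was downregulated, where 1.65% of all genes tested were called lower. In LIF/serum 3 of the 7, Zic2, Zic5 and Sall2, were downregulated, where 5.78% of all genes tested were called lower. The count of markers called higher in Dax1KO cells was 0 in both media by edgeR and by DESeq2, and at an unadjusted P under 0.05 it was 1 in 2i/LIF (Sox4) and 0 in LIF/serum. The median log2 fold change was -0.16 over 6 markers in 2i/LIF, leaving out Fgf5, which was at 0 there, and -0.88 over 7 markers in LIF/serum, against -0.01 and 0.01 over all 20749 genes. In the test of the difference between media, Zic2 and Zic5 were called, where 2.87% of all genes tested were.

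**Figure D1:**
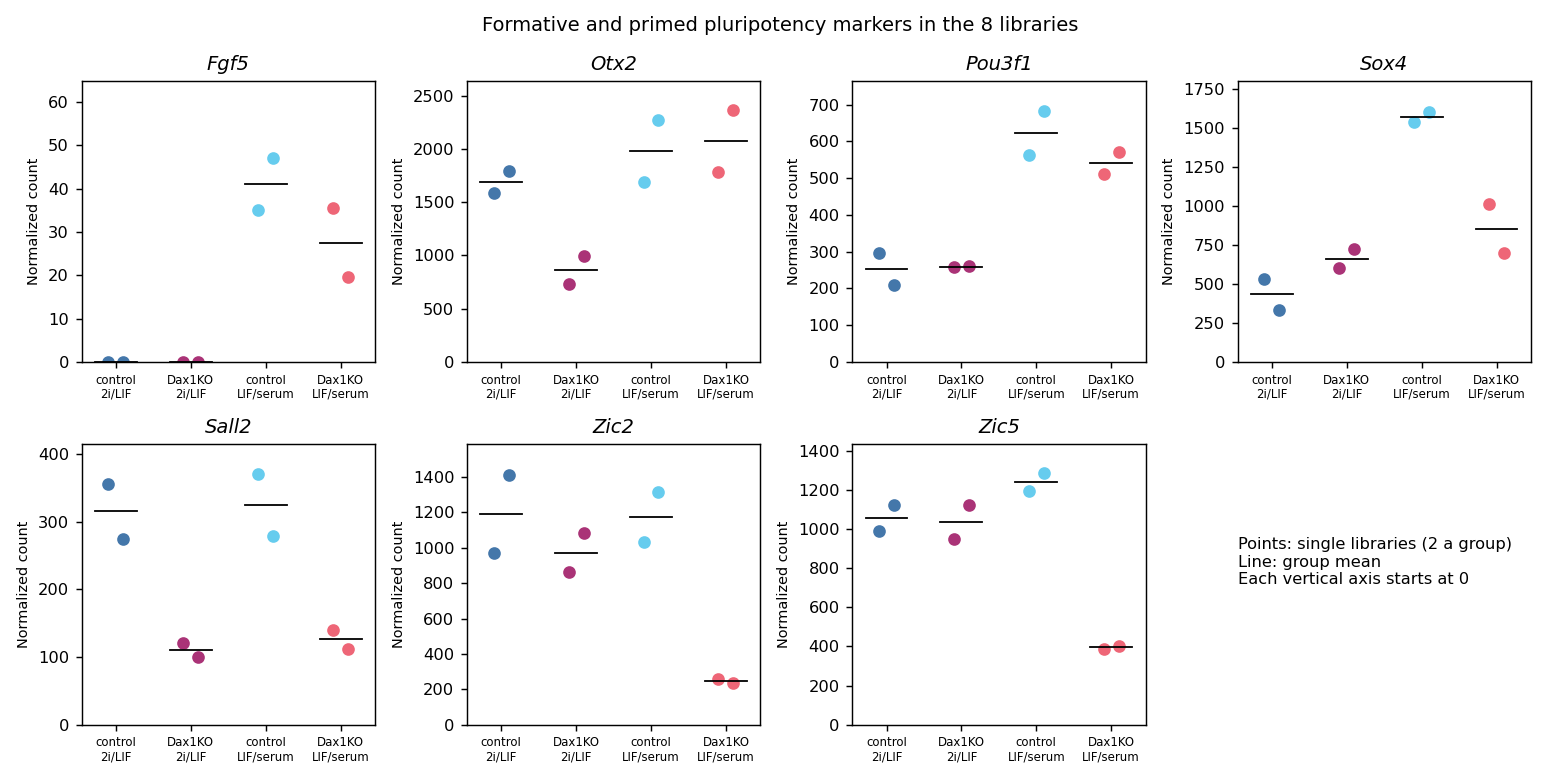
Normalized counts of the 7 markers in each of the 8 libraries (points) with the mean of each group of 2 (line). Each vertical axis is linear and starts at 0; Zic2 and Zic5 are low in the 2 Dax1KO libraries in LIF/serum alone, Sall2 is low in all 4 Dax1KO libraries, and Fgf5 is at 0 in all 4 libraries in 2i/LIF.

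The Zic genes showed the largest genotype differences among the markers. Zic2 had normalized counts (counts scaled to a common library size) of 973 and 1412 in control and 861 and 1084 in Dax1KO cells in 2i/LIF, where the groups overlapped. In LIF/serum it had 1031 and 1317 in control and 260.2 and 233 in Dax1KO cells. The 2 Dax1KO libraries in LIF/serum thus lay far below the other 6. The log2 fold change there was -2.25 (95% interval -2.79 to -1.71, adjusted P = 0.00210 by the quasi-likelihood test of edgeR), 4.76-fold lower, and in 2i/LIF it was -0.29 (-0.80 to 0.22, adjusted P = 0.570 by the same test). Zic5 had 991 and 1126 in control and 952 and 1122 in Dax1KO cells in 2i/LIF, and in LIF/serum 1195 and 1286 in control and 389 and 402 in Dax1KO cells. Like Zic2, Zic5 was low in those 2 libraries and overlapped between genotypes in 2i/LIF. Its log2 fold change in LIF/serum was -1.65 (-1.996 to -1.30, adjusted P = 0.00147 by the quasi-likelihood test of edgeR) and that in 2i/LIF was -0.03 (-0.37 to 0.31, adjusted P = 0.959 by the same test).

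The genotype effect on both Zic genes differed between media. The difference of the log2 fold changes was -1.96 for Zic2 (standard error 0.32, adjusted P = 0.0258 by the quasi-likelihood test of edgeR) and -1.62 for Zic5 (standard error 0.21, adjusted P = 0.0136 by the same test). Both calls of this difference were lost when any of the 4 Dax1KO libraries was left out, with adjusted P from 0.0705 to 0.105 for Zic2 and from 0.0534 to 0.0709 for Zic5 by edgeR's test. With each of the 8 libraries left out in turn the differences stayed between -2.28 and -1.71 for Zic2 and between -1.74 and -1.49 for Zic5. The call of Zic2 was also lost without control replicate 1 in 2i/LIF (0.0628 as edgeR's adjusted P), without control replicate 2 in LIF/serum (0.0681) and with no filter on low counts (0.0794).

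Zic2 and Zic5 moved together over the libraries, with a Pearson r of 0.986 between their log2 values over 8 libraries, a description only, since the libraries fall into a low pair and a high group of 6. Per base of exon Zic2 was 1.67 and 2.13 times Zic5 in control cells in 2i/LIF, 1.53 and 1.64 times in Dax1KO cells in 2i/LIF, and 1.46 and 1.74 times in control cells in LIF/serum. In Dax1KO cells in LIF/serum the ratio was 1.13 and 0.985, below all other libraries. The next protein coding genes outward of the pair were Clybl, 54561 bases beyond Zic5, with a log2 fold change of 0.60 in LIF/serum (adjusted P = 0.179 by the quasi-likelihood test of edgeR), and Pcca, 54472 bases beyond Zic2, with 0.17 (adjusted P = 0.532 by the same test). Over the 724 genes of chromosome 14 tested, which also carries Sall2 and Otx2, the median log2 fold change was -0.02 in 2i/LIF and reached -0.09 in LIF/serum. None of the 7 markers lies on chromosome 6, whose 1054 genes tested stood apart between the lines, with a median of 0.44 in 2i/LIF and one of 0.52 in LIF/serum. Zic5 shares 15.2% of its transcript with Gm12241 at 95% identity or more, and Gm12241 had at most 10 counts in any library.

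**Figure D2:**
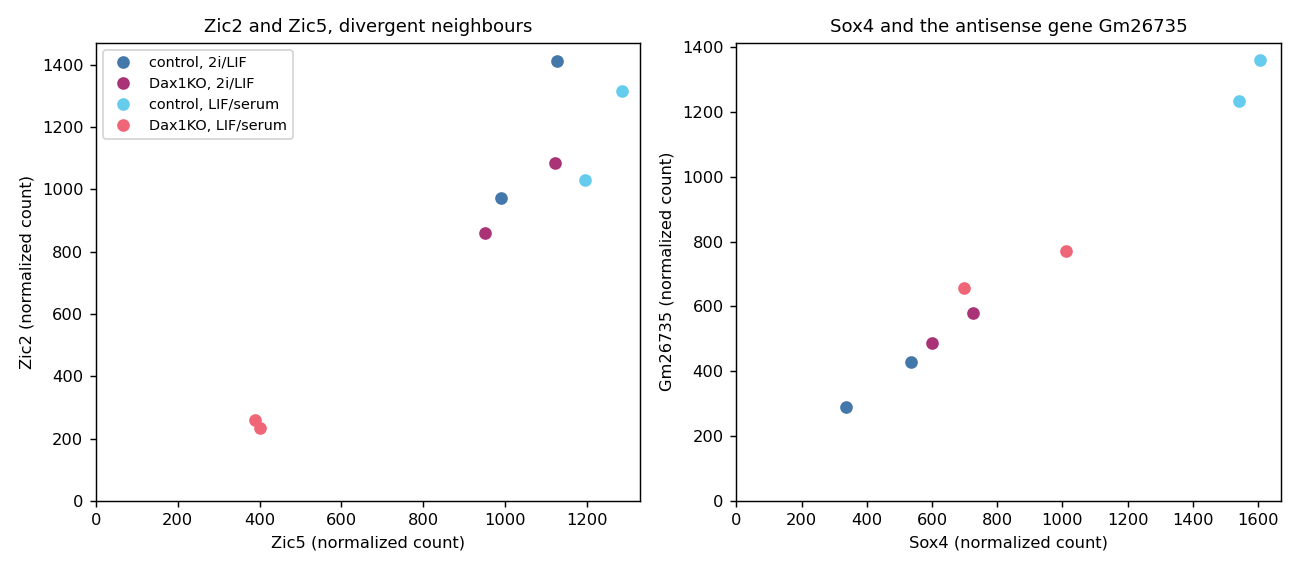
Normalized counts of Zic2 against Zic5 (left) and of Gm26735 against Sox4 (right), 1 point for each of the 8 libraries, coloured by group, on linear axes from 0. The 2 Dax1KO libraries in LIF/serum lie at the low end of the Zic pair. Gm26735 follows Sox4 in all 8 libraries, and 98.8% of its exon bases are shared with Sox4.

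Sall2 was low without Dax1 in both media. Normalized counts were 356 and 275 in control and 121 and 101 in Dax1KO cells in 2i/LIF, and 371 and 278 in control and 139.7 and 112 in Dax1KO cells in LIF/serum. All 4 Dax1KO libraries lay below all 4 control libraries, whatever the medium. The log2 fold change was -1.51 in 2i/LIF (95% interval -2.09 to -0.93, adjusted P = 0.0256 by the quasi-likelihood test of edgeR), 2.85-fold lower. In LIF/serum it was -1.37 (-1.94 to -0.79, adjusted P = 0.0126 by the same test), 2.58-fold lower. The difference between media was 0.14 (-0.66 to 0.95, adjusted P = 0.889 by the same test). The call in 2i/LIF was lost without any of the 4 libraries in 2i/LIF (adjusted P of 0.119 and 0.0651 without control replicates 1 and 2, 0.126 and 0.174 without Dax1KO replicates 1 and 2, by edgeR's test) and with no filter on low counts (0.0651), and the call in LIF/serum was lost without Dax1KO replicate 2 (0.0883). Mettl3, which begins 6044 bases beyond the 3′ end of Sall2, had log2 fold changes of -0.13 (2i/LIF) and -0.47 (LIF/serum) (adjusted P of 0.723 and 0.0616 by the quasi-likelihood test of edgeR). The medium alone moved Sall2 little, with 0.04 in control (-0.52 to 0.60, adjusted P = 0.912 by the same test) and 0.19 in Dax1KO cells (-0.39 to 0.77, adjusted P = 0.630).

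Otx2 was lower in the Dax1KO libraries in 2i/LIF, short of the threshold. Normalized counts in 2i/LIF were 1585 and 1789 in control and 734 and 990.1 in Dax1KO cells, so the groups did not overlap. In LIF/serum they were 1691 and 2270 in control and 1780.3 and 2361 in Dax1KO cells, and here the groups overlapped. The log2 fold change was -0.97 in 2i/LIF (95% interval -1.47 to -0.47, adjusted P = 0.0580 by the quasi-likelihood test of edgeR) and 0.06 in LIF/serum (-0.43 to 0.56, adjusted P = 0.878 by the same test). The value in 2i/LIF passed with counts divided by 3 (adjusted P = 0.0444 from edgeR) and with DESeq2 (0.00102). It lay further from the threshold with no filter on low counts (0.145 from edgeR) and without any 1 of the 4 libraries in 2i/LIF (0.153 to 0.300). The difference between media was 1.03 (0.33 to 1.74, adjusted P = 0.121 by the quasi-likelihood test of edgeR), which passed with DESeq2 (adjusted P = 0.0264). Otx2 shares 154 exon bases with the opposite strand gene Otx2os1, 3.65% of its exons, and Otx2os1 had at most 6 counts in any library. It also shares 168 exon bases, 3.98%, with Gm49154 on its own strand, for which no counts were found.

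Sox4 had opposite signs in the 2 media, again short of the threshold. In 2i/LIF normalized counts were 535 and 335 in control and 601 and 726 in Dax1KO cells. In LIF/serum they were 1542 and 1606 in control and 1012 and 699 in Dax1KO cells. Dax1KO libraries were thus above control in 2i/LIF and below it in LIF/serum, without overlap in either. The log2 fold change was 0.61 in 2i/LIF (0.01 to 1.203, adjusted P = 0.268 by the quasi-likelihood test of edgeR) and -0.88 in LIF/serum (-1.47 to -0.29, adjusted P = 0.0552 by the same test), a difference of -1.49 (-2.32 to -0.65, adjusted P = 0.0759 by the same test). The LIF/serum value passed with DESeq2 (adjusted P = 0.00655), with counts divided by 3 (0.0349 from edgeR) and without control replicate 1 or 2 in 2i/LIF (0.0412 and 0.0407 from edgeR), and the difference passed with DESeq2 (0.00199). The LIF/serum value lay further from the threshold with no filter on low counts (adjusted P = 0.130 from edgeR), without control replicate 1 or 2 in LIF/serum (0.127 and 0.142) and without Dax1KO replicate 2 there (0.268, at -0.63 on the log2 scale). The value of Sox4 is uncertain for another reason: 2616 of its exon bases, 54.6%, are shared with Gm26735, a lincRNA on the opposite strand. These bases make up 98.8% of the exons of Gm26735, and no source states that strand was used in counting. Gm26735 had 0.762 to 0.937 times the count of Sox4 in every library and a log2 fold change of 0.58 in 2i/LIF and one of -0.86 in LIF/serum (adjusted P of 0.205 and 0.0327 by the quasi-likelihood test of edgeR). Its difference between media was -1.44 (adjusted P = 0.0480 by the same test). The calls of Gm26735 beside the missed calls of Sox4 do not show that the genes differ, which was not tested, and reads in the shared bases may be counted for both.

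Pou3f1 was at similar counts in both genotypes. In 2i/LIF it had normalized counts of 296 and 209 in control and 258 and 261 in Dax1KO cells, and in LIF/serum 563 and 684 in control and 509.9 and 570.4 in Dax1KO cells. The genotypes overlapped in both media. The log2 fold change was 0.04 in 2i/LIF (95% interval -0.45 to 0.52, adjusted P = 0.964 by the quasi-likelihood test of edgeR) and -0.21 in LIF/serum (-0.68 to 0.27, adjusted P = 0.544 by the same test). Pou3f1 shares 330 exon bases, 8.57%, with the antisense gene Gm2164, which had at most 15 counts in any library. Fgf5, the only ligand of the group, had counts of 0 in all 4 libraries in 2i/LIF, which allows up to 3 counts in a library. In LIF/serum it had 33 and 44 counts in control and 37 and 20 in Dax1KO cells, with overlap and a log2 fold change of -0.57 (-2.01 to 0.86, adjusted P = 0.565 by the quasi-likelihood test of edgeR). It passed the filter on low counts through LIF/serum alone.

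**Figure D3:**
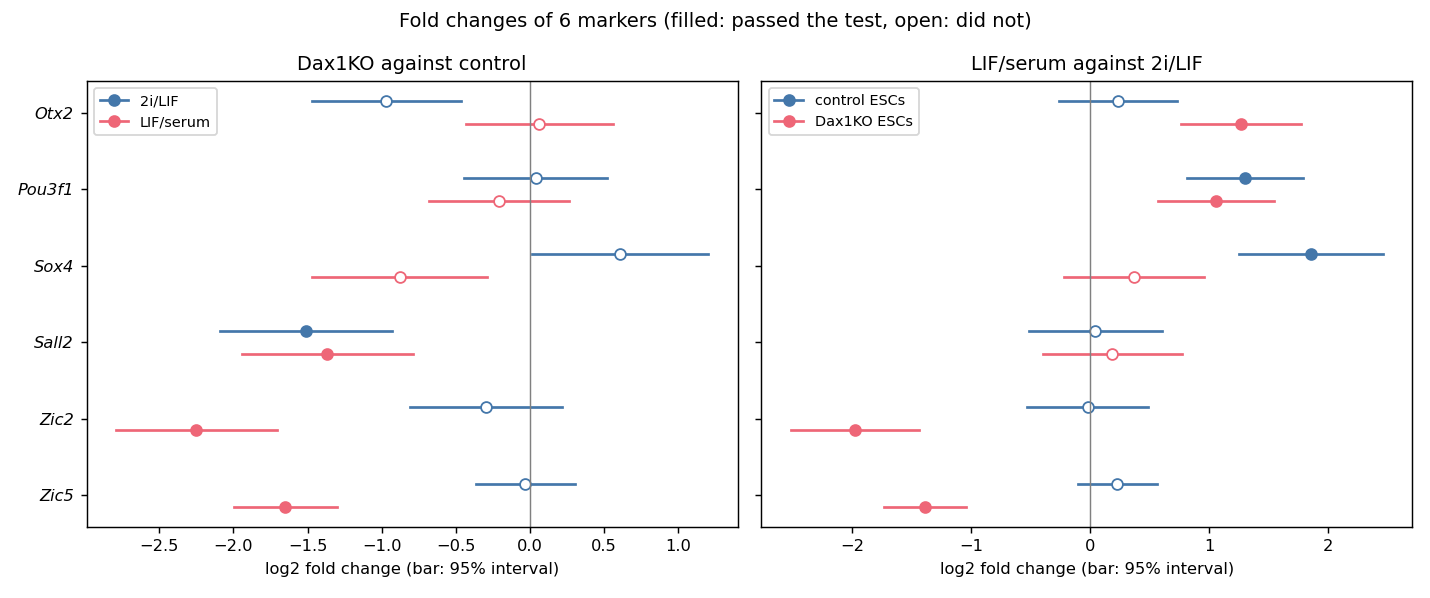
Log2 fold changes (points) with 95% intervals (bars) of 6 markers, for Dax1KO against control in each medium (left) and for LIF/serum against 2i/LIF in each genotype (right), on linear axes. Filled points passed the test; Fgf5 is left out because it had 0 counts in 2i/LIF, and on the right Zic2 and Zic5 in Dax1KO cells are the only filled points below 0.

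The markers were next compared between LIF/serum and 2i/LIF within each genotype. Of the 6 markers with counts in both media 2 rose in control cells, Sox4 and Pou3f1, where 16.5% of all genes tested were called higher. Sox4 had a log2 fold change of 1.85 (95% interval 1.25 to 2.46, adjusted P = 0.00122 by the quasi-likelihood test of edgeR), 3.62-fold, and Pou3f1 one of 1.30 (0.82 to 1.79, adjusted P = 0.00228 by the same test), 2.47-fold. Fgf5 was at least 13.6-fold higher when 2i/LIF is set to the floor of 3 counts in a library, a description with no test, since it entered the fit through LIF/serum, where it is high. Otx2 with 0.23 (-0.26 to 0.73, adjusted P = 0.438), Zic5 with 0.23 (-0.11 to 0.56, adjusted P = 0.255) and Zic2 with -0.02 (-0.53 to 0.49, adjusted P = 0.947) did not pass the same edgeR test. The sign for Zic2 turned to 0.0024 with RLE size factors, to 0.0025 with DESeq2 and to 0.019 with counts divided by 3.

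In Dax1KO cells 2 of the same 6 markers rose with LIF/serum, where 13.7% of all genes tested were called higher, and 2 fell, where 15.2% were called lower. Pou3f1 rose by 1.06 on the log2 scale (0.57 to 1.54, adjusted P = 0.00760 by the quasi-likelihood test of edgeR) and Otx2 by 1.26 (0.76 to 1.77, adjusted P = 0.00416 by the same test), while Fgf5 was at least 9.38-fold higher, again with no test. Zic2 fell by 1.98 and Zic5 fell by 1.39 on the log2 scale (adjusted P of 0.000689 and 0.000450 by the same test). Sox4, with 0.37 (-0.22 to 0.96, adjusted P = 0.330 by the same test), did not pass. The call of Pou3f1 was lost without Dax1KO replicate 1 or 2 in 2i/LIF (0.0529 and 0.0549 as edgeR's adjusted P). The comparisons of media share their libraries with the comparisons of genotypes, so these values restate the same 8 libraries along the other axis.

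**Figure D4:**
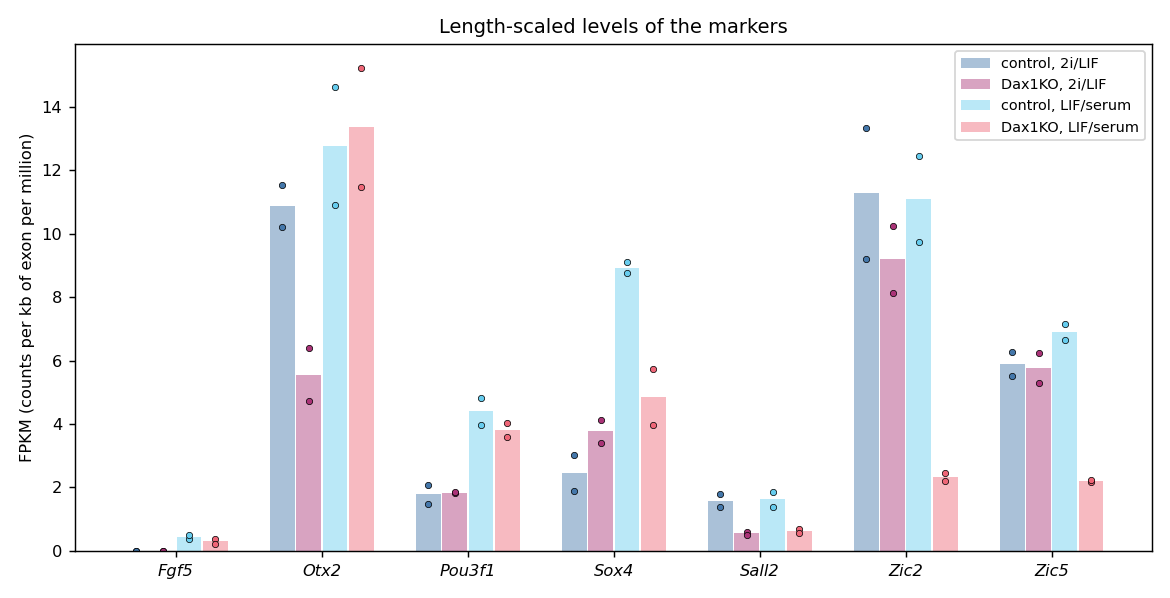
FPKM (counts per kilobase of exon, scaled to library size, computed here) of each marker; bars are group means from 0, and points are the 2 libraries of each group. Zic2 and Zic5 lie near 2 FPKM in Dax1KO cells in LIF/serum, where Otx2 leads, against means of 11.1 and 6.91 in control cells in LIF/serum.

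Levels were compared between genes per length of annotated exon. In control cells in 2i/LIF the order was Zic2 (11.3 ± 2.94 FPKM, SD, n = 2), Otx2 (10.9 ± 0.931), Zic5 (5.89 ± 0.534), Sox4 (2.47 ± 0.804), Pou3f1 (1.78 ± 0.434), Sall2 (1.58 ± 0.287) and Fgf5 (0). The libraries of Zic2 and Otx2 overlapped, as did those of Sox4 and Pou3f1 and those of Pou3f1 and Sall2. In Dax1KO cells in 2i/LIF Zic2 (9.19 ± 1.49) stood first and Otx2 (5.56 ± 1.17) beside Zic5 (5.77 ± 0.669), with overlap, ahead of Sox4 (3.77 ± 0.502), Pou3f1 (1.83 ± 0.016) and Sall2 (0.554 ± 0.0706). In control cells in LIF/serum Otx2 (12.8 ± 2.64) and Zic2 (11.1 ± 1.92) overlapped at the head, followed by Sox4 (8.93 ± 0.260), Zic5 (6.91 ± 0.360), Pou3f1 (4.41 ± 0.604), Sall2 (1.63 ± 0.328) and Fgf5 (0.446 ± 0.0919). In Dax1KO cells in LIF/serum Otx2 (13.4 ± 2.65) stood alone, Sox4 (4.86 ± 1.26) and Pou3f1 (3.82 ± 0.302) overlapped, and Zic2 (2.33 ± 0.182) and Zic5 (2.20 ± 0.0486) overlapped below them. Sall2 (0.631 ± 0.0976) and Fgf5 (0.299 ± 0.122) were last. Even where it was detected, Fgf5 stayed under 1 FPKM, as the plot of length-scaled levels shows.

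Over the 8 libraries the markers formed no single pattern. Besides the Zic pair, the log2 values of Fgf5 and Pou3f1 (Pearson r of 0.963), Pou3f1 and Sox4 (0.850) and Fgf5 and Sox4 (0.833) followed each other, and all 3 genes were higher in both control libraries in LIF/serum than in those in 2i/LIF, while Fgf5 and Zic2 had an r of -0.42. Fgf5 was at 0 in the 4 libraries in 2i/LIF, so an r with it mostly sets these apart from the 4 in LIF/serum. Sall2 had an r of 0.540 with Zic2 and of 0.142 with Fgf5. These values describe 8 libraries in 4 groups. Among 11953 protein coding genes other than the 7 markers, those most like Zic2 by Pearson r were Marcksl1 (0.989), Sms (0.988) and Nrbp1 (0.978), and those most like Zic5 were Marcksl1 (0.986), Nrbp1 (0.985) and Thumpd1 (0.982). The likest genes were Rnf2 (0.988), Ccnd1 (0.980) and Cnpy1 (0.979) for Sall2, Xrcc1 (0.986), Lrch4 (0.981) and Prmt8 (0.979) for Otx2, and Nr2f6 (0.979), Celsr3 (0.975) and Csrnp1 (0.972) for Sox4. They were Ddx41 (0.991), Afg1l (0.989) and Bckdha (0.989) for Pou3f1, and Myc (0.995), Foxo4 (0.995) and Hmces (0.995) for Fgf5, and those for Fgf5 likewise mostly follow the split by medium. With ranks in place of values (Spearman), 0 of these 21 places kept their gene, so the lists rest on the measure. Pearson r also leaves out the size of a change. For Dax1KO against control in LIF/serum, Marcksl1 had a log2 fold change of -0.63, Sms -0.92 and Nrbp1 -0.23, against -2.25 for Zic2.

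Other genes of the same transitions were read beside the markers. Of 13 further formative genes, 10 rose and 1 fell (Sox3, log2 fold change -0.85) from 2i/LIF to LIF/serum in control cells, with a median of 1.79, among them Etv4 (2.22), Tcf15 (2.69), Dnmt3b (1.79), a de novo DNA methyltransferase, and Foxp1 (2.58). In Dax1KO cells 8 of the 13 rose with the medium, with a median of 1.51. Against genotype, 1 rose and 1 fell in 2i/LIF (Etv4 0.75, Etv5 -0.85), and 1 rose and 2 fell in LIF/serum (Etv4 1.04, Etv1 -1.51, Tcf15 -0.66), with medians of -0.13 and -0.10. Over all genes tested the shares called higher with genotype were 1.51% in 2i/LIF and 8.87% in LIF/serum, beside the 1.65% and 5.78% called lower, and 20.3% were called lower with LIF/serum in control cells. Etv1, Etv4 and Etv5 are ETS factors downstream of FGF signalling. All calls are those of the quasi-likelihood test of edgeR.

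Of 13 primed and primitive streak genes 12 were tested, Cer1 having counts of 0 in all 8 libraries. In 2i/LIF 0 of the 12 were called against genotype by the quasi-likelihood test of edgeR, 4 had an unadjusted P under 0.05, and DESeq2 called 1 (Nodal). In LIF/serum Eomes (1.05), a T-box factor of the streak, rose and Cdh2 (-1.58), N-cadherin, fell. With the medium in control cells 4 rose, among them Foxa2 (3.20) and Nodal (0.64), and 3 fell, among them Gsc (-5.72) and Eomes (-1.23). Of 8 genes of ERK feedback and immediate early response, 6 rose with LIF/serum in control cells, with the lowest adjusted P for Dusp6 (4.66), Spry4 (5.86), Spry2 (2.12) and Egr1 (5.69), and 5 rose and 1 fell (Fos, -1.36) in Dax1KO cells. MEK, which acts upstream of ERK, is inhibited in 2i/LIF. Against genotype Spry2 rose in 2i/LIF (0.78), and in LIF/serum Egr1 (-1.58), Spred1 (-0.65) and Spry2 (-0.63) fell and Dusp4 (0.97) rose.

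**Figure D5:**
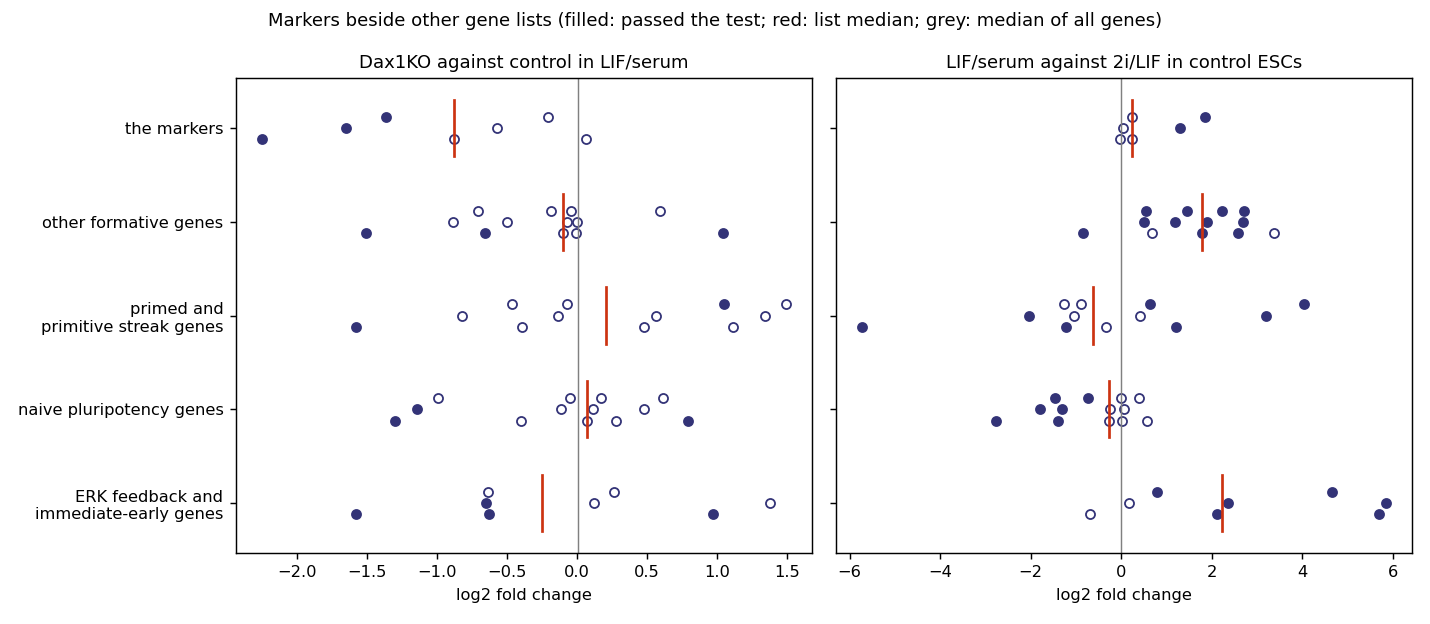
Log2 fold changes of single genes (points, filled where the test was passed) of the markers and of 4 other lists, for Dax1KO against control in LIF/serum (left) and LIF/serum against 2i/LIF in control cells (right), with list medians (red) and the median of all genes tested (grey), on linear axes. The right panel leaves out Fgf5, which had 0 counts in 2i/LIF; the marker median lies at -0.88 on the left, and that of the ERK list at 2.23 on the right.

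Of 13 naive genes, 3 fell in Dax1KO cells in 2i/LIF (Nr5a2 -0.81, Prdm14 -0.86, Klf2 -0.76), and in LIF/serum 2 fell (Nr5a2 -1.30, Klf2 -1.14) and 1 rose (Klf4 0.79), with medians of -0.16 and 0.07. DESeq2 called 6 of the 13 in 2i/LIF, adding Dppa3 (1.13 by edgeR), Tfcp2l1 (0.79) and Zfp42 (-0.56), and 5 in LIF/serum, adding Tbx3 (0.62) and Dppa3 (-0.99). Of 15 relatives of the markers in the same gene families 11 were tested, and in Dax1KO cells in LIF/serum 3 of them fell, Sall3 (-1.82), Sall1 (-0.78) and Sox11 (-0.77). Sall3 was called in the test of the difference between media (-2.34, adjusted P = 0.0458 by the quasi-likelihood test of edgeR).

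Markers of other cell types moved with some of the groups. Of 7 primitive endoderm markers, which include Foxa2, 5 rose in Dax1KO cells in LIF/serum (Gata4 1.44, Dab2 1.63, Sox17 1.62, Gata6 1.38 and Pdgfra 1.28 on the log2 scale), where 8.87% of all genes tested were called higher, and their summed normalized counts were 5599 and 3999.7 in control and 14792 and 12481 in Dax1KO cells there, against 1075 to 1399 in 2i/LIF. None of the 7 was at 0 in both libraries of any group. Of 6 neural markers 5 were tested, and Pax6 (-2.30) fell in Dax1KO cells in LIF/serum. The neural sums were 5475 and 6097 in control and 5389 and 4414 in Dax1KO cells in LIF/serum, with Neurog2 at 0 in all libraries. The libraries in which Zic2 and Zic5 were low were thus also those with the highest primitive endoderm sums, and the part of either list in the Zic result was not tested. In 2i/LIF, where Sall2 was also low in Dax1KO cells, the primitive endoderm sums were 1091 and 1399 in Dax1KO cells against 1075 in both control libraries, and 1 of the 7, Dab2, rose (1.28). Without Dab2 the sums were 861 and 790.2 in control and 594 and 683 in Dax1KO cells, and 4 of these 6 markers had values below 0, with Gata6 at -1.13 (adjusted P = 0.0951 by the quasi-likelihood test of edgeR, called by DESeq2). The neural sums in 2i/LIF were 5074 and 5137 in control and 4332 and 4323 in Dax1KO cells, without overlap. Of the 5 neural markers tested, edgeR called 0 there and 3 had an unadjusted P under 0.05. DESeq2 called Tubb3 (-0.55 by edgeR), and Pax6 alone lay above 0 (0.38). The part of either list in the Sall2 and Otx2 values was not tested. Of 6 trophectoderm markers, with Cdx2 at 0 in 2i/LIF, 2 rose in Dax1KO cells in 2i/LIF (Krt8 1.48, Krt18 1.12), and in LIF/serum 1 rose (Krt18 0.76) and 1 fell (Tfap2c -0.74). Of 6 fibroblast markers 5 were tested; Thy1 (-0.85) fell in 2i/LIF, and Thy1 (1.63) and Col1a1 (2.13) rose in LIF/serum, where Postn, Lum and Col3a1 were at 0 in both genotypes. Of 6 mesoderm and streak markers Eomes alone was called with genotype, in LIF/serum, while in 2i/LIF edgeR and DESeq2 called 0 and 2 had an unadjusted P under 0.05. Between media all 7 primitive endoderm markers were called higher with LIF/serum in both genotypes, with median log2 values of 1.47 in control and 3.66 in Dax1KO cells, and DESeq2 called the same genes except Sox17 in control cells. Of the 5 fibroblast markers tested 4 were called lower and 1 higher in control cells, and 2 lower and 1 higher in Dax1KO cells. Of the ESC markers 3 rose and 1 fell in control and 5 rose and 1 fell in Dax1KO cells. Of the neural markers 1 rose and 1 fell in control and 2 rose and 2 fell in Dax1KO cells, of the trophectoderm markers 2 rose and 2 fell in control and 2 rose and 1 fell in Dax1KO cells, and of the mesoderm and streak markers 2 fell in each. The part of these lists in the values of Sox4, Pou3f1 and Otx2 between media was not tested.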

How the data were processed

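The authors deposited a table of counts for each library, whole numbers per Ensembl gene without normalization. The submitters' processing notes name HISAT2 2.0.4, DESeq2 and mm10, and the counting tool, annotation and strand setting are not given in the sources used here. Of 52550 genes, 52403 were found in GENCODE M21 (GRCm38), which gave symbols, coordinates and exon lengths, and 147 had no symbol. Libraries were grouped by their labels. In edgeR 4.0.16 (R 4.3.3) filterByExpr kept 20749 genes, TMM factors of 0.960 to 1.04 were used, and 1 quasi-likelihood model took in all 4 groups, with a biological coefficient of variation of 20.9%. Genes were called at a fold change of 1.2 or more with a Benjamini-Hochberg adjusted P no higher than 0.05, and differences between media by the adjusted P alone. The steps were tested on simulated data. Normalized counts bring each library to the mean TMM-scaled size, and FPKM also divides by exon length. Correlations used log2 CPM with a prior count of 2, and the genes compared with the markers had a mean normalized count of at least 100. Low counts piled up at 3, a value held by 1348 to 1587 genes in a library against 823 to 940 at 2, so low counts may not count fragments one by one, and floors cover counting error only.

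The members, the marker lists and the tests were chosen with earlier results of these data known. Named were the 7 markers, up to 4 called genes from each list in a comparison with the lowest adjusted P first and list genes needed as a reference point, the 3 likest genes and the nearest protein coding neighbours of a marker, its relatives, and Dax1. Sox3, Fos and Pdgfra are named outside this rule, after their values were seen. The values of 1 relative are not reported here. Transcripts were aligned with blastn at 95% identity or more. The alternatives were DESeq2 1.42.0, RLE size factors, no filter on low counts, only the groups compared, the replicate number as a block, a fold change of at least 2, counts divided by 3, and each library left out in turn.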

Additional observations from a re-analysis of the deposited data

Results flagged for a closer look

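The genotype effect differed between media for 2 of the 7 markers, by the interaction term of edgeR's quasi-likelihood test. The difference of log2 fold changes, LIF/serum minus 2i/LIF, was -1.96 for Zic2 and -1.62 for Zic5. Among genes of the other lists the same term was past the threshold for Spry2 (-1.41), Sall3 (-2.34), Gata4 (1.60), Gata6 (2.51), Pax6 (-2.68) and Thy1 (2.47).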

How the results depend on the processing

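Of 428 log2 fold changes of the markers recomputed under another setting, Fgf5 between media left out, 383 kept their direction and their side of the threshold. The number of markers called for Dax1KO against control in 2i/LIF was 1, and it became 0 with no filter on low counts (Sall2 lost), 2 with the replicate block, with counts divided by 3 and with DESeq2 (Otx2 gained, adjusted P = 0.0158 from edgeR with the replicate block), and 0 to 1 with a library left out. In LIF/serum it was 3, and 2 to 4 with a library left out. For the difference between media it was 2, and it became 1 with no filter, 4 with DESeq2 (Otx2 and Sox4 gained), and 0 to 2 with a library left out. Otx2 also passed this test with the replicate block (adjusted P = 0.0355 from edgeR), for a count of 3. With the medium, 3 markers were called in control cells under every setting, and 5 in Dax1KO cells, or 4 to 5 with a library left out (these counts include Fgf5, which entered the fit through LIF/serum alone). The causes were not tested.

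Uncalled values that changed sign were that of Zic2 between media in control cells (-0.02), which became 0.0024 with RLE size factors, 0.019 with counts divided by 3 and 0.0025 with DESeq2, and others with a library left out. These ran from -0.18 to 0.31 for Pou3f1, -0.54 to 0.014 for Zic2 and -0.15 to 0.084 for Zic5 with genotype in 2i/LIF, from -0.15 to 0.28 for Otx2 with genotype in LIF/serum, and from -0.059 to 0.37 for the difference of Sall2 between media. With the medium in control cells they ran from -0.18 to 0.26 for Sall2 and -0.27 to 0.32 for Zic2.

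Over all genes 656 were called for genotype in 2i/LIF, and 121 with no filter, 1455 with DESeq2, 408 at a fold change of 2 or more and 38 to 673 with a library left out. In LIF/serum it was 3041, and 1842 with no filter, 1743 with only the groups compared, 1420 at a fold change of 2 or more and 728 to 2496 with a library left out. The difference between media had 596, and 119 with no filter, 1510 with DESeq2 and 36 to 344 with a library left out. With the medium, 7641 genes in control and 5999 in Dax1KO cells became 4535 and 3580 at a fold change of 2 or more, and 5057 to 7120 and 2986 to 6286 with a library left out. The likest genes were 20 of the same 21 with a prior count of 0.5 and 0 with Spearman's rho.

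The replicate numbers are shared names: deviations of same-numbered libraries correlated at 0.080 between genotypes in 2i/LIF and at 0.108 between those in LIF/serum. With 2 libraries a group the spread of one gene is poorly known, and leaving one out assumes that the lone library varies like the others. Depth limits Fgf5, at 0 in 2i/LIF and at most 44 counts elsewhere.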
